A study of Mus musculus with 10 samples.

Results

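The genes described here encode the nuclear-encoded subunits of the mitochondrial respiratory chain and of ATP synthase, measured in mouse medulloblastoma and in the cerebellum beside it. They were chosen by symbol alone (Nduf with a, b, c, s or v and a digit, Sdha to Sdhd, Uqcr, Cyc1, Cox4 to Cox8, and Atp5) among genes named alone by at least 1 probe set. This gave 82 of 18193 genes with a probe set of their own, of which 35 belong by symbol to complex I, 4 to complex II, 9 to complex III, 17 to complex IV and 17 to complex V. All but Cox7a1 passed the filter on low values, so 81 were tested. The symbols Ndufa11 and Ndufs6 occur only on probe sets that name several genes, and those probe sets are given apart.

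Medulloblastoma is a malignant cerebellar tumour. Mice carrying CAGGS-CreER, a tamoxifen-activated recombinase under a broadly active promoter, and R26-SmoM2, a conditional activated Smoothened, were injected with 1 mg of tamoxifen for every 40 g they weighed, on postnatal day 10. Each of 2 Affymetrix chips, 430A and 430B, was hybridised with RNA of 3 tumours and 2 cerebellum samples. The cerebellum samples, called wild type by the labels, came from adjacent tissue of mice with the same genotype and the same injection, so both groups carry both alleles. The labels used here give neither the age at collection nor whether a tumour and a cerebellum sample share an animal. Samples of a tissue are labelled as biological replicates, and the p-values measure the spread between these samples only.

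The respiratory chain moves electrons from NADH and succinate to oxygen and pumps protons across the inner mitochondrial membrane. Complex I takes electrons from NADH and complex II from succinate, complex III passes them to cytochrome c, complex IV hands them to oxygen, and complex V, the ATP synthase, uses the proton gradient to make ATP. Most subunits are encoded in the nucleus, and several subunits of complex IV and the c ring of ATP synthase exist as alternative isoforms from separate genes. Firing neurons, Purkinje cells and granule neurons included, depend heavily on this system.

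The tumours carried lower levels of most of these subunits. Of the 81 genes tested, 55 were lower in medulloblastoma and none was higher at an adjusted p below 0.05 in limma (Benjamini-Hochberg over all probe sets tested on a chip). Over all 14702 genes tested, 16% were lower and 10.7% higher. With each gene represented by 1 probe set, none was higher at an unadjusted limma p below 0.05 either. The lowest p among the genes with a positive change was 0.117, in Cox7a2l. A 430B probe set of Atp5g2 that did not represent the gene had 0.84, with an unadjusted limma p of 0.0151. The median log2 fold change of tumour over cerebellum was -0.90 over the 81 genes and -0.05 over all genes tested. Values ranged from -1.98 in Cox8a to 0.33 in Cox7a2l, and 37 genes were lower by at least 1 log2 unit. Over all 14702 genes tested 1240 were, and 672 of the 3699 with a mean intensity over 100. Fold changes are differences of mean log2(intensity + 16), and understate the change of genes with low intensity. RNA came from tissue pieces, so fewer cells of a type and less RNA per cell cannot be told apart.

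The separation of the arrays was near complete for these genes. All 3 tumours read below both cerebellum arrays in 66 of 81 genes, against 30.1% of all genes tested, and each of the 55 called genes was among them. All 3 tumours read above both cerebellum arrays in 4, namely Cox7a2l, Atp5g2, Ndufa4l2 and Cox8c, against 22.2% of all genes tested, and none of these 4 passed the test. Many of these genes had bright probe sets. Among genes with a mean intensity over 100 the background was 27% lower and 17.2% higher, and 54 of the 69 subunit genes above that limit were lower. Quantile normalization, which gives every array of a chip the same distribution, left 37 subunit genes lower. It made Cox7a2l and Atp5g2 higher and moved the median of the subunit genes to -0.54. Over all 14699 genes tested in that fit, 2038 were lower and 1981 higher, with a median of 0.01. The mean intensity of the 430A arrays was 110.7 and 117 in cerebellum and 94.3 to 95.3 in the tumours, and quantile normalization removes that gap by construction.

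**Figure D1:**
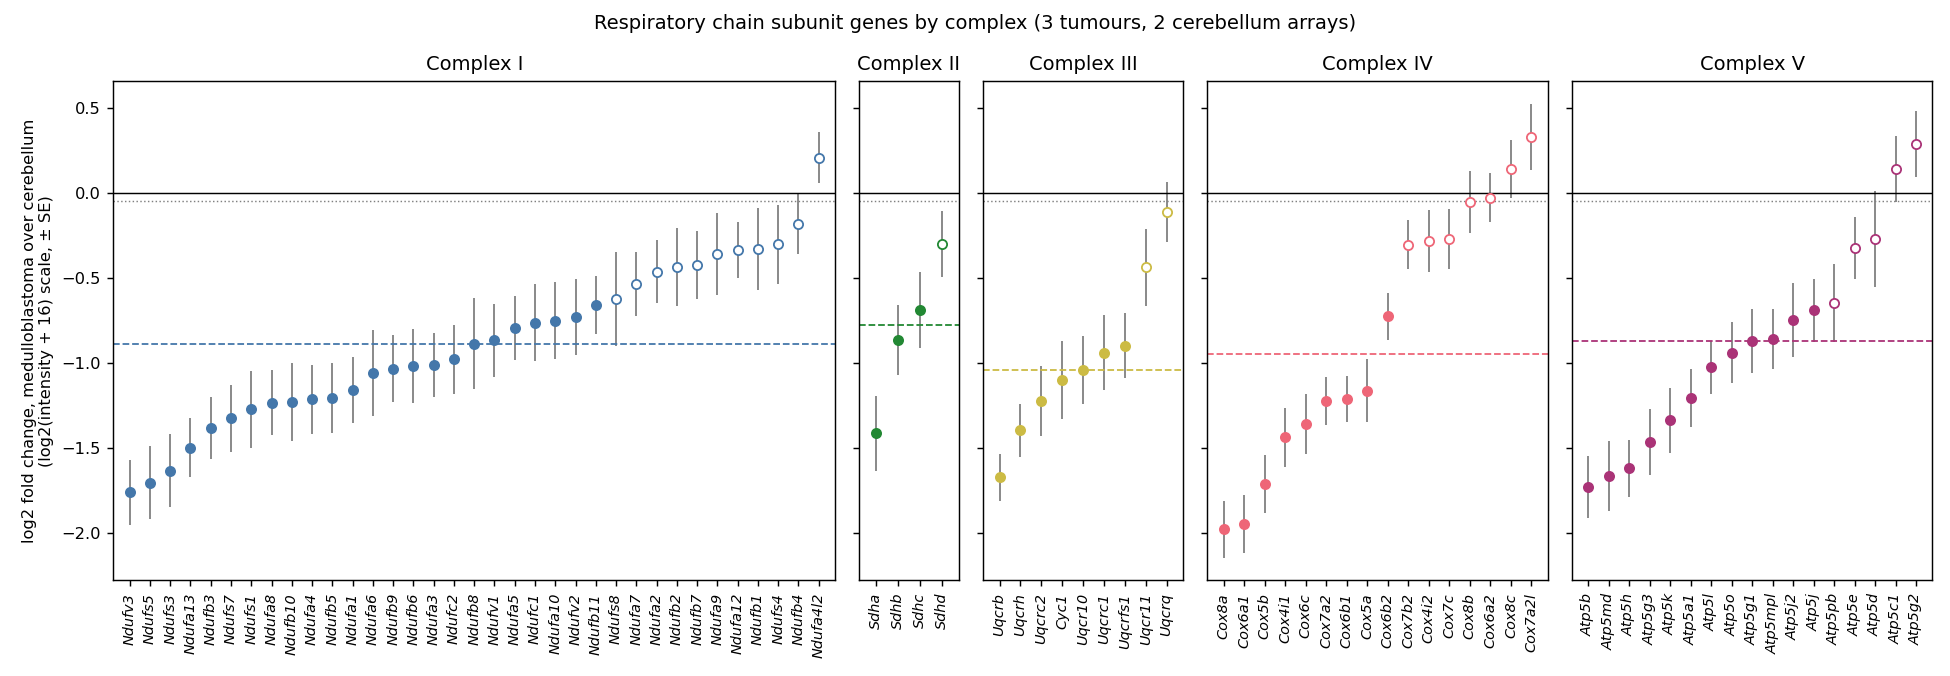
Log2 fold change of tumour over cerebellum (y axis, ± SE) for each of the 81 tested genes (x axis), in 1 panel per complex, from 3 tumour and 2 cerebellum arrays. Filled points passed the test, dashed lines mark the median of a complex, and the dotted line marks the median of all genes tested. All filled points lie below 0, from -1.98 to -0.66.

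Markers of cell types moved with the tissue. All 7 genes listed as markers of mature granule neurons fell, with a summed intensity of 8234 and 9159 in cerebellum and 259.2 to 366.7 in the tumours. Of these genes, Snap25 and Vsnl1 are not particular to granule neurons. All 5 tested Purkinje cell markers fell too, from 12898 and 16246 to 216.3 to 456.8. So did 4 of 5 markers of Bergmann glia and astrocytes, where all 5 together summed to 2382 and 3236 against 368.4 to 743. Among these 5, Gfap went the other way, with 32.1 and 39.9 in cerebellum and 83.0, 62.1 and 41.3 in the tumours. Its log2 fold change was 0.56 ± 0.22 (limma adjusted p = 0.0789). Both tested oligodendrocyte markers fell (3460 and 4243 against 50.4 to 188.9). The 5 genes listed as granule precursor markers rose, the proliferation gene Mki67 among them. The part of these cells in the fall of the subunits was not tested. In cerebellum 1 the granule precursor markers summed to 265.4, against 77.6 in cerebellum 2 and 2466 to 3595 in the tumours. In the subunit genes cerebellum 2 read above cerebellum 1 in 64 of 81. Over all genes tested it did so in 7451 of 14702, and in 1776 of the 3699 with a mean intensity over 100. The median log2 fold change of the subunit genes was -0.81 without cerebellum 2 on either chip and -1.01 without cerebellum 1. Over all genes tested the median was -0.04 in both fits.

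The mean level of each complex shows how the arrays lay. Over the 33 complex I genes represented on 430A, the mean of log2(intensity + 16) was 9.12 and 9.34 in cerebellum and 8.44, 8.15 and 8.29 in tumours 1, 2 and 3. Over the 17 genes of complex V it was 9.69 and 9.91 against 9.04, 8.82 and 8.89. In complex IV, with 15 genes, it was 8.81 and 8.82 against 7.94, 8.04 and 7.88. No tumour overlapped a cerebellum array in any of the 5 complexes. Tumour 2 was the lowest tumour in 20 of 35 complex I genes, 3 of 4 complex II genes and 12 of 17 complex V genes, but in 4 of 16 complex IV genes and 4 of 9 complex III genes. Over all genes tested it was the lowest in 4986 of 14702.

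**Figure D2:**
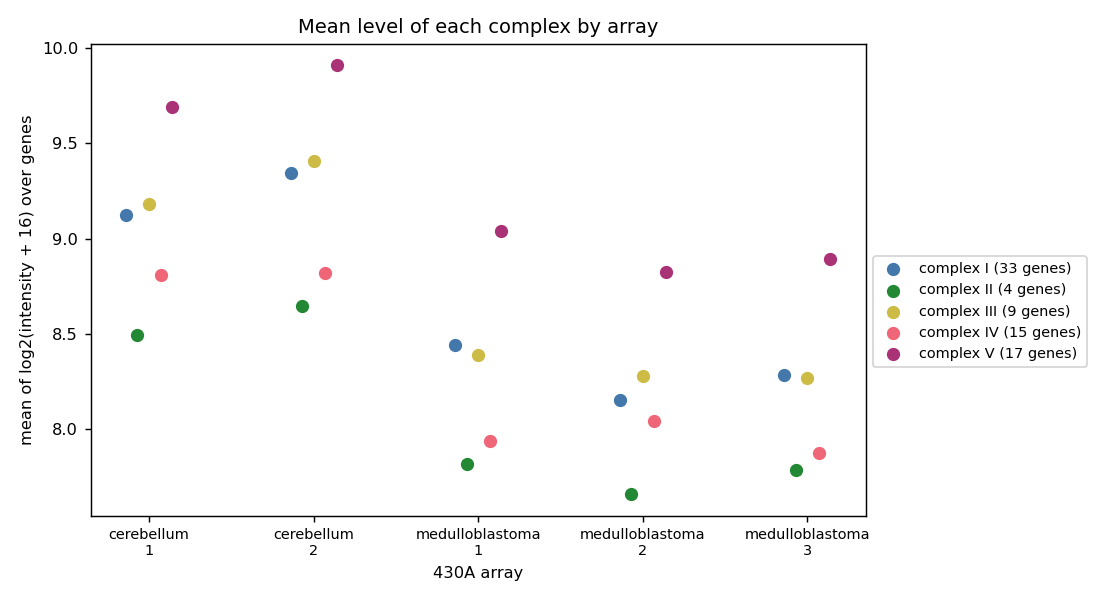
Mean of log2(intensity + 16) over the genes of a complex (y axis) on each 430A array (x axis), 1 colour per complex. Every complex lies lower in all 3 tumours than in both cerebellum samples, and complex I and complex V have their lowest value in tumour 2.

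Complex I, the largest complex of the chain, had 24 of 35 genes lower and none higher, with a median of -0.89. Its catalytic core carries the flavin and the iron-sulfur clusters through which electrons leave NADH. Of the 6 core subunits tested 5 fell. Ndufs3, a core subunit of the arm that reaches the quinone site, read 627.2 and 836.2 in cerebellum and 206.4, 259.2 and 206.7 in the tumours, a log2 fold change of -1.63 ± 0.21 (SE, adjusted p = 1.37e-04). Both cerebellum values lay far above every tumour value. Ndufs7, which holds the last iron-sulfur cluster before quinone, changed by -1.33 ± 0.20 and Ndufs1, the largest core subunit, by -1.27 ± 0.23. Ndufv1 and Ndufv2, the flavoprotein subunits at the NADH end, changed by -0.87 ± 0.21 and -0.73 ± 0.23. After quantile normalization both missed the threshold, at -0.59 and -0.21, and 3 of the 6 core subunits remained lower. Of the 3 tested probe sets of Ndufv2, 1 was lower without that normalization. Without 1 sample number, the call of Ndufv1 ended in 1 of 5 fits and that of Ndufv2 in 2. Ndufs8 was the exception among the core, with 401.2 and 617.5 against 432.6, 229.7 and 322.8, where tumour 1 lay between the cerebellum arrays. The change was -0.62 ± 0.28 (limma adjusted p = 0.117), and all 6 of its tested probe sets missed the threshold, from -0.63 to -0.24.

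Of the 27 other complex I subunits tested, leaving out Ndufa4 and Ndufa4l2, 18 fell, with a median of -0.89 against -1.07 in the core, a difference that was not tested. Ndufv3, an accessory subunit beside the flavoproteins, read 1036 and 1154 in cerebellum and 319.1, 353.0 and 267.5 in the tumours, a log2 fold change of -1.76 ± 0.19 (limma adjusted p = 4.12e-05). The cerebellum mean was 3.50 times the tumour mean. Ndufs5, an accessory subunit of the membrane arm, read 744.5 and 1100 against 254.0, 294.6 and 253.9, a change of -1.70 ± 0.22 (limma adjusted p = 1.12e-04). Ndufa13, also known as Grim19, read 2059 and 2407 against 908.2, 775.0 and 669.5, a change of -1.50 ± 0.17 (limma adjusted p = 6.26e-05). In these 3 genes the groups lay far apart. Ndufb8, an accessory subunit often used as a marker of assembled complex I, read 346.6 in cerebellum 1 and 671.8 in cerebellum 2, against 223.2 to 275.7 in the tumours. Its log2 fold change of -0.89 ± 0.27 (limma adjusted p = 0.0251) therefore moved to -1.35 without cerebellum 1 and -0.42 without cerebellum 2, where the call ended. It also ended without tumour 1 or tumour 3.

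A further group of complex I genes missed the threshold although the tumours read lower. Ndufa2, Ndufa7, Ndufa9, Ndufb2, Ndufb7 and Ndufs4 had log2 fold changes between -0.53 and -0.30, and in each all tumours lay below both cerebellum arrays. Ndufa7 came closest, with an adjusted p of 0.0512 in limma. Of the 4 tested probe sets of Ndufs4, 1 dim one on 430A was lower, at -0.61 ± 0.17 (limma adjusted p = 0.0155). Ndufb1 had -0.33 ± 0.24 with overlapping groups. Ndufa12 was represented by a dim probe set of 15.02 to 33.63 units with -0.33 ± 0.16, while its 3 other probe sets, of 444.0 to 1046 units, fell by 0.71 to 0.80 on the log2 scale. Ndufb4 had only a dim 430B probe set of its own, with 23.98 and 18.43 in cerebellum and 11.7, 24.2 and 15.4 in the tumours. This change of -0.18 ± 0.18 was the smallest of complex I. Probe sets that name Ndufb4 together with Ndufb4b and Ndufb4c changed by -0.66 ± 0.26 (adjusted p = 0.0837 in limma) and -1.05 ± 0.28 (0.0136). The probe set shared by Ndufa11 and Ndufa11b changed by -0.90 ± 0.23 (limma adjusted p = 0.0114), and that shared by Ndufs6 and Ndufs6b by -0.31 ± 0.20 (0.282).

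Ndufa4 bears a complex I name but is known as a subunit of complex IV. It read 1223 and 1532 in cerebellum and 549.2, 498.4 and 716.4 in the tumours, a log2 fold change of -1.21 ± 0.20 (limma adjusted p = 7.51e-04). Its paralogue Ndufa4l2, a hypoxia-inducible protein, was measured only on 430B and read 35.5 and 44.9 in cerebellum and 47.58, 50.8 and 47.65 in the tumours, a change of 0.21 ± 0.15 (limma adjusted p = 0.417). The paralogues thus lay on different sides of 0, but they were measured on different chips and their difference was not tested. On 430B scaled on the probe sets that both chips hold, the sign of Ndufa4l2 turned.

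Complex II, or succinate dehydrogenase, is also an enzyme of the citrate cycle. Of its 4 subunits 3 fell, and 1, Sdha, was lower after quantile normalization. Sdha, the flavoprotein that binds succinate, read 452.8 and 530.1 in cerebellum and 181.1, 138.6 and 209.4 in the tumours, a log2 fold change of -1.41 ± 0.22 (limma adjusted p = 5.01e-04). Sdhb, the iron-sulfur subunit, read 703.5 and 782.4 against 471.1, 323.5 and 420.6, a change of -0.86 ± 0.21 (limma adjusted p = 0.00776). The membrane anchors changed less. Sdhc read 162.4 and 223.0 against 101.2, 138.8 and 100.1, a change of -0.69 ± 0.22 (limma adjusted p = 0.0345), and this call ended in 4 of the 5 fits that leave out 1 sample number. Sdhb lost its call without cerebellum 2, where its log2 fold change was -0.79. Sdhd read 265.6 and 231.6 against 213.8, 189.9 and 192.1, a change of -0.30 ± 0.19 (limma adjusted p = 0.283), with all tumours below both cerebellum arrays.

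In complex III, ubiquinol-cytochrome c reductase, 7 of 9 genes fell, with a median of -1.04. Uqcrb, which binds near the ubiquinone site, read 3333 and 3463 in cerebellum and 1056, 1142 and 975.6 in the tumours, a log2 fold change of -1.67 ± 0.14 (limma adjusted p = 5.89e-06). Uqcrh, the acidic hinge protein, read 1884 and 1857 against 747.3, 645.0 and 714.9, a change of -1.40 ± 0.16 (limma adjusted p = 4.84e-05). The cerebellum arrays lay close together in both. Uqcrc2, a core protein, read 726.4 and 840.6 against 352.6, 267.8 and 364.2, a change of -1.22 ± 0.20 (limma adjusted p = 7.95e-04). The subunits that carry electrons also fell, with Cyc1, cytochrome c1, at -1.10 ± 0.23 and Uqcrfs1, the Rieske iron-sulfur protein, at -0.90 ± 0.19. Uqcrfs1 missed the threshold after quantile normalization, at -0.53. Cyc1 read 684.4 in cerebellum 1 and 1175 in cerebellum 2 against 391.1 to 425.2 in the tumours. The change was -1.48 without cerebellum 1 and -0.72 without cerebellum 2, where the call ended. Uqcr11 had -0.44 ± 0.23 with overlapping groups. Uqcrq was represented by a dim probe set of 47.5 and 49.1 against 40.8, 56.1 and 35.6, a change of -0.11 ± 0.18, while its brightest probe set read 394.5 and 407.6 against 269.1, 181.3 and 240.5, a change of -0.78 ± 0.22 (limma adjusted p = 0.0172).

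Complex IV, cytochrome c oxidase, held the largest falls of the 81 genes, in its common subunits. Cox8a, the common form of the smallest subunit, read 1672 and 1919 in cerebellum and 448.3, 454.0 and 427.7 in the tumours, a log2 fold change of -1.98 ± 0.17 (limma adjusted p = 6.88e-06). The cerebellum mean was 4.05 times the tumour mean. Cox6a1, the common form of subunit VIa, read 3492 and 3685 against 780.0, 1138 and 872.7, a change of -1.95 ± 0.17 (limma adjusted p = 9.52e-06). Cox5b read 1678 and 2037 against 586.6, 541.1 and 533.8, a change of -1.71 ± 0.17 (limma adjusted p = 1.91e-05). Cox4i1, the common form of the largest nuclear subunit, read 2550 and 3423 against 1097, 1220 and 943.2, a change of -1.44 ± 0.17 (limma adjusted p = 7.89e-05). In each of these 4 the highest tumour lay far below the lower cerebellum array.

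Within complex IV the common and the tissue-restricted forms differed in how many fell, though the latter were mostly dim. Of the 9 common subunits tested 8 fell, with a median of -1.36. The exception was Cox7c, measured only by dim probe sets, with -0.27 ± 0.18. Of the 6 tissue-restricted forms tested, 1 fell, Cox6b2, and their median was -0.17. The median of -0.94 over all 16 genes mixes these classes and moved between -1.22 and -0.70 with the pseudocount and the filter. Among genes with a mean intensity over 100, medians were -1.36 in complex IV (9 genes), -1.07 in complex III (8), -0.99 in complex I (32), -0.90 in complex V (16) and -0.78 in complex II (4). No difference between complexes was tested.

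The isoform pairs were compared array by array, as the log2 difference between the common and the alternative form. Cox4i2, a form linked to hypoxia and lung, read 47.3 and 50.8 in cerebellum and 28.6, 49.7 and 36.3 in the tumours, a log2 fold change of -0.28 ± 0.18. Cox6a2, the heart and muscle form, read 24.1 and 20.8 against 21.3, 24.8 and 19.3, the smallest change of complex IV at -0.03 ± 0.14. Cox8b, also a muscle form, read 23.2 and 11.8 against 16.8, 20.2 and 11.2, with -0.05 ± 0.18. Cox6a2 and Cox8b lay below the medians of the 430A arrays, 33.31 to 35.9, and Cox4i2 around them, and no measure of detection was used. Cox7b2, a testis form on 430B, had -0.30 ± 0.14, and Cox8c, also a testis form, had 0.14 ± 0.17. Striated muscle markers summed to 138.0 and 141.4 over 6 genes in cerebellum and 143.5 to 156.8 in the tumours, also at low intensity per gene. Markers of pericytes, where Cox4i2 and Ndufa4l2 are also known, summed to 320.7 and 262.5 over 4 genes against 238.2 to 291.8.

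Exact two-sided permutation tests over the arrays gave p = 0.2 for each of the 9 pairs, 0.2 after adjustment over the pairs, which is the smallest p that 3 tumours against 2 cerebellum samples allow. The common form fell further than its partner for Cox6a1 against Cox6a2 (difference of log2 fold changes -1.92), for Cox8a against Cox8b (-1.92) and for Cox4i1 against Cox4i2 (-1.16). In all 9 pairs the within-array differences of tumours and cerebellum did not overlap, but how often other gene pairs do so was not counted. Of all single genes tested, the tumours lay below both cerebellum arrays in 30.1% and above both in 22.2%. Some pairs share a gene, so the 9 pairs are not independent. Dim forms cannot move far on the log2(intensity + 16) scale, so these differences also carry the brightness of the probe sets. Cox6b2, the testis form of subunit VIb, read 27.1 and 30.6 in cerebellum and 11.8, 12.2 and 9.45 in the tumours, a log2 fold change of -0.73 ± 0.14 (limma adjusted p = 0.00184). Its partner Cox6b1 read 2599 and 2820 against 1151, 1129 and 1197, a change of -1.21 ± 0.14 (limma adjusted p = 4.71e-05). The pair differed by -0.49, and by 0.08 with a pseudocount of 1. Cox7a1, the heart and muscle form of subunit VIIa, read 20.8 and 32.7 against 6.38, 13.0 and 9.07 and lay below the filter. Without the filter it had -0.74 ± 0.17 (limma adjusted p = 0.0109), and its difference from Cox7a2 was -0.49, or 0.18 with a pseudocount of 1.

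Cox7a2l did not fall with the common subunits. The protein, also called SCAFI, resembles Cox7a2 and is known for joining complexes III and IV in supercomplexes. It read 447.1 and 395.6 in cerebellum and 566.0, 584.5 and 458.6 in the tumours, so every tumour lay above both cerebellum arrays. Its log2 fold change was 0.33 ± 0.19 (limma adjusted p = 0.234), and 0.69 (limma adjusted p = 0.0198) after quantile normalization. Its 2 other probe sets gave 0.22 ± 0.20 and -0.01 ± 0.19. The probe set with -0.01 was the brightest, and its groups overlapped. Cox7a2, the common form of subunit VIIa, read 2882 and 2976 against 1349, 1118 and 1278, a change of -1.22 ± 0.14 (limma adjusted p = 5.74e-05). With the probe sets that represent these genes, the within-array difference between Cox7a2 and Cox7a2l changed by -1.56. This value lay between -1.68 and -1.42 when 1 array was left out.

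**Figure D3:**
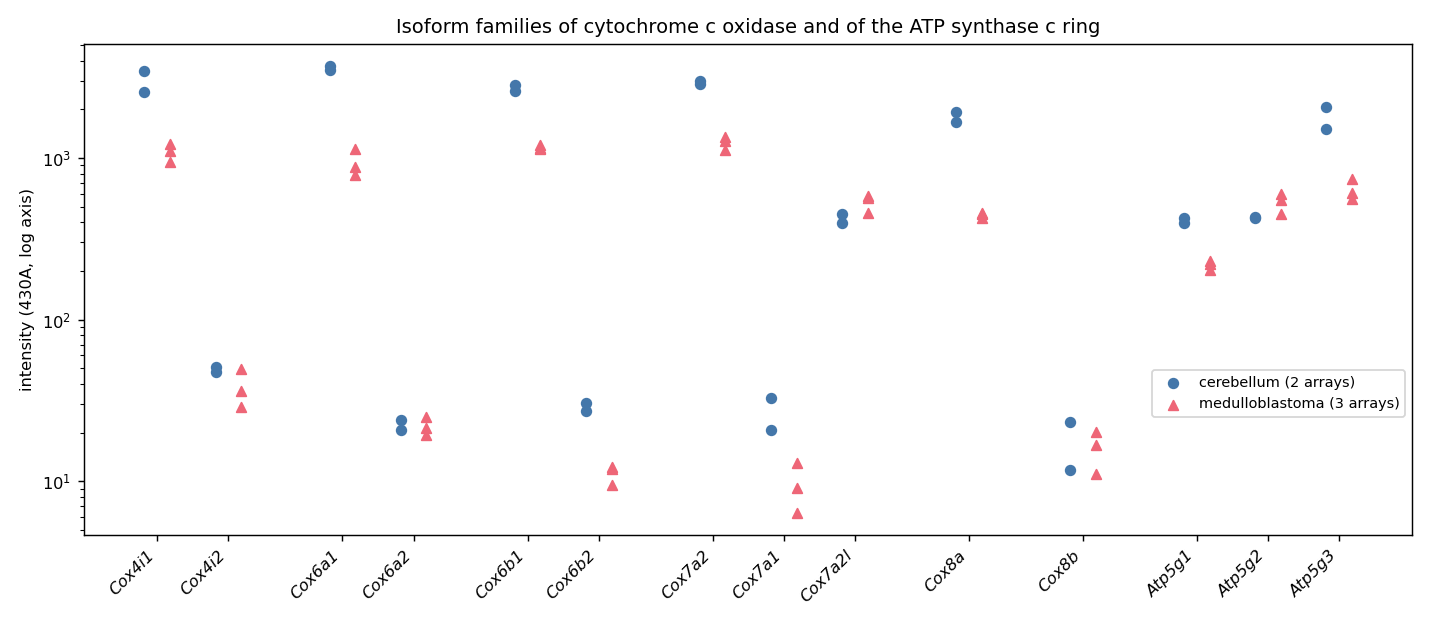
Intensity on 430A (y axis, log scale) of the isoforms of cytochrome c oxidase and of the ATP synthase c ring (x axis), with 1 point per array, circles for the 2 cerebellum and triangles for the 3 tumour arrays. Each isoform is shown by 1 probe set. The common forms of cytochrome c oxidase lie lower in all tumours. Cox7a2l and Atp5g2 lie higher in all tumours than in both cerebellum samples without passing the test.

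Complex V had 12 of 17 genes lower and none higher, with a median of -0.87. Atp5b, the catalytic beta subunit of the F1 head, read 2191 and 2977 in cerebellum and 835.5, 800.6 and 653.5 in the tumours, a log2 fold change of -1.73 ± 0.18 (limma adjusted p = 3.17e-05). Its partner Atp5a1, the alpha subunit, changed by -1.21 ± 0.17. The central stalk was less clear. Atp5d, the delta subunit, had -0.27 ± 0.28 with overlapping groups, and Atp5e, the epsilon subunit, had -0.32 ± 0.18 with all tumours below both cerebellum arrays. Atp5c1, the gamma subunit, was represented by a dim probe set of 24.7 and 43.5 against 35.4, 32.9 and 47.4, with 0.14 ± 0.19. Its bright probe set read 1118 and 1639 against 789.1, 522.3 and 655.6 and gave -1.05 ± 0.22 (limma adjusted p = 0.00379), so the direction for this gene depended on the probe set.

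Of the 4 peripheral stalk subunits, which hold the head still, 3 fell, and 1 of them, Atp5h, was lower after quantile normalization. Atp5h, subunit d, read 1972 and 2083 against 742.0, 571.9 and 644.2, a change of -1.62 ± 0.17 (limma adjusted p = 2.81e-05). Atp5pb, subunit b, had -0.65 ± 0.23 (limma adjusted p = 0.0516), and its other probe set gave -0.72 ± 0.18 (0.00855). All 5 membrane subunits measured fell, and 2 of them, Atp5md and Atp5k, were lower after quantile normalization. The calls of Atp5j, subunit F6 of the stalk, and Atp5j2, subunit f, each ended in 2 of the 5 fits that leave out 1 sample number. Atp5md, a small subunit also called DAPIT, read 1898 and 1914 against 716.9, 447.9 and 642.5, a change of -1.66 ± 0.21 (limma adjusted p = 9.70e-05). Atp5k, Atp5l, Atp5j2 and Atp5mpl changed by -1.34 to -0.75.

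The c ring, the rotor through which protons pass, is built from 1 mature protein that 3 genes encode with different import sequences. These genes did not move together. Atp5g3 read 1510 and 2061 in cerebellum and 606.1, 736.7 and 557.3 in the tumours, a log2 fold change of -1.46 ± 0.19 (limma adjusted p = 1.59e-04). Atp5g1 read 396.7 and 424.3 against 229.3, 203.5 and 219.6, a change of -0.87 ± 0.19 (limma adjusted p = 0.00462), and lost its call without cerebellum 2, at -0.82. Atp5g2 read 424.0 and 431.4 against 595.4, 450.9 and 545.4, so all tumours lay above both cerebellum arrays. This change was 0.29 ± 0.19 (limma adjusted p = 0.297), and 0.66 (limma adjusted p = 0.0273) after quantile normalization. A 430B probe set of Atp5g2 gave 0.84 ± 0.29 (limma adjusted p = 0.0743), with 70.25 and 90.21 in cerebellum and 188.8, 200.5 and 98.1 in the tumours. On that chip the probe sets shared with 430A also read highest in tumours 1 and 2, and the part of this in the value was not tested. A dim 430A probe set of Atp5g2 gave 0.00 ± 0.13, with 19.15 to 21.15 on all arrays. Within arrays, the log2 fold change of Atp5g2 was 1.76 above that of Atp5g3, and Atp5g1 minus Atp5g2 gave -1.16, each with p = 0.2 in the exact permutation test, its smallest value. Over the arrays left out in turn these differences lay between 1.55 and 1.98 and between -1.23 and -1.11.

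The promoters of 6 members, some of which fell and some of which did not, are set side by side here. The 250 bases upstream of the annotated start were taken from RefSeq on GRCm38.p6, where 66 of the 82 genes matched by symbol. The motifs of 4 factors known to regulate respiratory chain genes were searched on both strands, namely the NRF1 motif, CCGGAAG for the ETS family of GABPA, AAGATGGCG for YY1 and TNAAGGTCA for the estrogen-related receptors. Shown are the leading common subunits of complex IV, the 3 genes of the c ring and Cox7a2l, 5′ to 3′ on the strand of the gene, with matches in capitals. All 6 lie on the minus strand, at chr19:7217617-7217866 (Cox8a), chr5:115348959-115349208 (Cox6a1), chr2:73911327-73911576 (Atp5g3), chr11:96075632-96075881 (Atp5g1), chr15:102671048-102671297 (Atp5g2) and chr17:83514334-83514583 (Cox7a2l).
Cox8a: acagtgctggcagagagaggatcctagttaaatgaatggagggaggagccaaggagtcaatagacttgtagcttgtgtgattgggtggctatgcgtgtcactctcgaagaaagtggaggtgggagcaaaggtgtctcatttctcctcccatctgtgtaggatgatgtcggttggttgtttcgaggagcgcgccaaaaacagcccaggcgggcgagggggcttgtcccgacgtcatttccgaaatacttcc
Cox6a1: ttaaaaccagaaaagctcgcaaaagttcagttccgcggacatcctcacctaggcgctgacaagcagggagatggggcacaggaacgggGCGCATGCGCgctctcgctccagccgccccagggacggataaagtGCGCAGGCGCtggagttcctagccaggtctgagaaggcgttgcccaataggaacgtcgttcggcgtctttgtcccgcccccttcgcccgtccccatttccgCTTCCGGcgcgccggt
Atp5g3: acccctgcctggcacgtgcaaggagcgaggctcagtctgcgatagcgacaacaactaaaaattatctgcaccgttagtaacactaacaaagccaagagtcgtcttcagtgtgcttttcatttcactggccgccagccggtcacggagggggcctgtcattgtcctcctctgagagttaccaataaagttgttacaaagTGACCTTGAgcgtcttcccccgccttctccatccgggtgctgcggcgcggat
Atp5g1: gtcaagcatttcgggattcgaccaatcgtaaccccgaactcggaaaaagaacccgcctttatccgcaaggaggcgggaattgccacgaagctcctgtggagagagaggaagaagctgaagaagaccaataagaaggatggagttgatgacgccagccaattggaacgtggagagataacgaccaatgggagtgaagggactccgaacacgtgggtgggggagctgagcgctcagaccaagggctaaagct
Atp5g2: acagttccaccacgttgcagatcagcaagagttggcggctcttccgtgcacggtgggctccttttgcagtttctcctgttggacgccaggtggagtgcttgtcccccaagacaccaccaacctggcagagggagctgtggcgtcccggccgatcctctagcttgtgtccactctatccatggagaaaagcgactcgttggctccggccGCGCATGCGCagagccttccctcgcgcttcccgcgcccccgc
Cox7a2l: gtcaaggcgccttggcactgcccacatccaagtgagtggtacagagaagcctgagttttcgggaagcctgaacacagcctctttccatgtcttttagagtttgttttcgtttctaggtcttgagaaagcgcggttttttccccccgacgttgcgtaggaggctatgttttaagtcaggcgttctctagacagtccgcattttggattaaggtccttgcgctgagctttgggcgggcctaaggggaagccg
Cox6a1 holds 2 NRF1 matches, 162 to 153 and 117 to 108 bases before the start, and 1 ETS match 16 to 10 bases before it. Atp5g2, which did not fall, holds 1 NRF1 match 42 to 33 bases before the start, and Atp5g3, which fell, 1 match for the estrogen-related receptors 52 to 44 bases before it. The windows of Cox8a, Atp5g1 and Cox7a2l hold none of the 4 motifs. Matches are letters in a window and do not show that a factor binds there.

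Across the family, the NRF1 motif occurred in 16.7% of the 66 genes, in 8.02% of 11815 genes tested on the arrays and in 3.74% of all 32851 promoters of the table. The ETS motif occurred in 18.2%, 13.4% and 6.91%. YY1 matches were found in 1.52%, 1.18% and 0.606%, and matches for the estrogen-related receptors in 3.03%, 0.999% and 1.14%. Members that fell and members that did not pass the test were counted apart. The NRF1 motif was in 7 of 45 genes that fell and in 4 of 20 tested genes that were not called, and the ETS motif in 8 and in 4. No overlap between these motifs was required or removed, and the shares were not tested.

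Several genes were measured by more than 1 probe set. Of the 44 subunit genes with over 1 tested probe set, 17 had all probe sets lower, 18 had some lower and the rest not called, 9 had none called, and none had a probe set that was higher. The same shares were not counted over all genes with several tested probe sets. Brightness went with these calls. On 430A, 88 of 123 subunit probe sets with a mean intensity over 100 were lower, with a median of -0.90, against 3 of 18 dimmer ones, with a median of -0.22. Over all 430A probe sets tested 19% were lower, and they were not split by brightness. By gene, 27% of those with a mean intensity over 100 were lower, against 16% of all genes tested. When each gene was represented by its brightest probe set, 59 subunit genes were lower and Atp5c1, Atp5pb, Ndufa12 and Uqcrq were added.

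**Figure D4:**
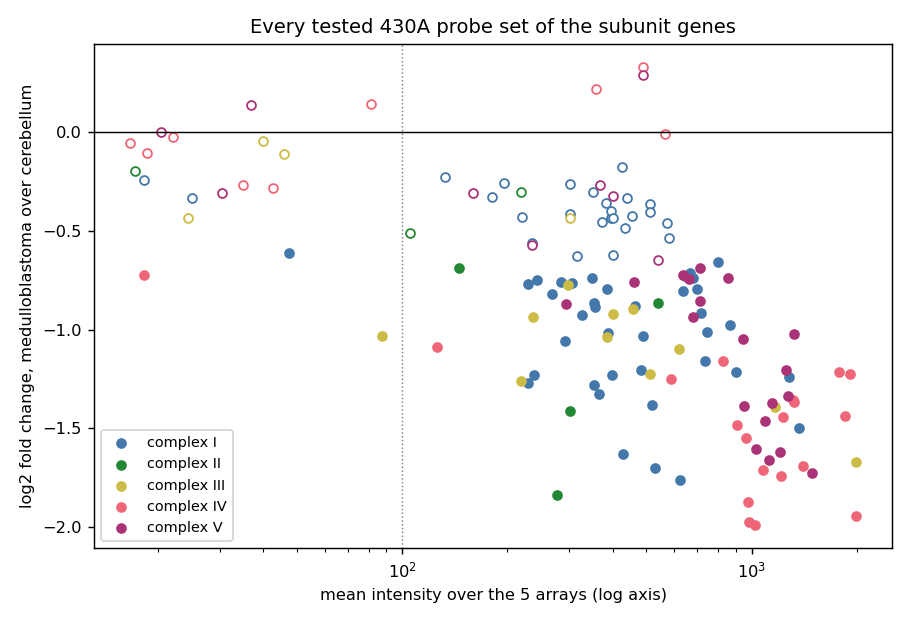
Log2 fold change of tumour over cerebellum (y axis) against mean intensity over the 5 arrays (x axis, log scale) for each tested 430A probe set of the subunit genes, coloured by complex. Filled points passed the test, and the dotted line marks an intensity of 100, below which 3 of 18 probe sets were lower against 88 of 123 above it.

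On 430B, 1 of 13 tested subunit probe sets was lower and none higher, against 9.77% lower and 7.85% higher over all 430B probe sets tested. The bright ones gave other values than on 430A. A 430B probe set of Ndufc2 read 781.4 and 901.8 in cerebellum and 932.5, 1382 and 520.1 in the tumours (log2 fold change 0.06 ± 0.41), while the 430A probe sets gave -0.98 ± 0.20 and -1.24 ± 0.18. A 430B probe set of Uqcrh read 957.4 and 986.5 against 1039, 1145 and 513.3 (-0.19 ± 0.39). In both, tumours 1 and 2 of 430B read above cerebellum and tumour 3 below it. The 100 probe sets that both chips hold name no subunit gene, and on 430B their median log2 level was 8.01 and 7.96 in tumours 1 and 2, 7.33 in tumour 3 and 7.51 and 7.54 in cerebellum. On 430A the median of the same probe sets was 7.44 and 7.45 in cerebellum and 7.27, 7.30 and 7.39 in tumours 1, 2 and 3. All tumours thus lay slightly below both cerebellum arrays there. All 55 calls rest on 430A probe sets.

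The assembly factors of the complexes also held genes that fell, against a background of 16% lower over all genes tested. Of 14 tested assembly factors of complex I 3 fell, with a median of -0.16, led by Ndufaf5 (-0.71 ± 0.16), Tmem126b (-0.68 ± 0.19) and Ndufaf3 (-0.68 ± 0.21). Of 4 factors of complex II 1 fell, Sdhaf2 (-0.58 ± 0.20), with Sdhaf4 at -0.38 ± 0.28. Of 5 factors of complex III 3 fell, Uqcc1 (-0.81 ± 0.16), Uqcc2 (-0.65 ± 0.20) and Ttc19 (-0.41 ± 0.14). Of 17 factors of complex IV 5 fell. Among them were Surf1 (-1.48 ± 0.21), a factor of early assembly, the copper carriers Cox17 (-1.07 ± 0.18) and Sco2 (-1.06 ± 0.18), and Coa3 (-0.66 ± 0.16). For complex V 1 of 4 fell, Atpaf1 (-0.77 ± 0.18), a chaperone of the beta subunit, while Atpif1, the inhibitor of the enzyme, had 0.01 ± 0.20. No assembly factor rose, against 10.7% of all genes tested.

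Electron carriers and coenzyme Q enzymes held 5 genes that fell, again against 16% of all genes tested. Of 8 carriers and supply enzymes 2 fell, Gpd2 (-1.42 ± 0.20), the mitochondrial glycerol phosphate dehydrogenase, and Cycs (-0.69 ± 0.19), somatic cytochrome c, and their median was -0.07. Of 11 genes of coenzyme Q synthesis 3 fell, Coq9 (-1.02 ± 0.16), Coq8a (-0.74 ± 0.16) and Coq5 (-0.44 ± 0.15), with a median of -0.22. Neither list held a gene that rose.

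Of 15 regulators of mitochondrial biogenesis tested 3 rose and 2 fell, with a median of 0.11, against 10.7% higher and 16% lower over all genes tested. The falls were in the coactivators Ppargc1b (-3.24 ± 0.17, limma adjusted p = 5.36e-07) and Ppargc1a (-2.13 ± 0.16, 3.51e-06). Ppargc1a read 120.1 and 125.2 in cerebellum and 13.17, 13.55 and 20.71 in the tumours, and Ppargc1b 192.4 and 183.3 against 3.79, 10.35 and 3.23. The rises were in Twnk, the mitochondrial DNA helicase (0.85 ± 0.15), and in Gabpa and Gabpb1, the subunits of an ETS factor (0.68 ± 0.21 and 0.55 ± 0.16). Nrf1 had 0.41 ± 0.17 (limma adjusted p = 0.0880) and Tfam, which packages mitochondrial DNA, 0.18 ± 0.19 (0.528).

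Of 21 import and outer membrane genes tested 5 fell and 3 rose, with a median of -0.01, against the same background. The falls included the outer membrane channel Vdac2 (-1.10 ± 0.19) and the import receptor Tomm70a (-0.90 ± 0.23), and the rises were Phb2, a prohibitin of the inner membrane (1.12 ± 0.21), Timm50 (0.93 ± 0.20) and Timm8a1 (0.91 ± 0.25), which act in inner membrane import. Tomm20, an import receptor often used as a mitochondrial marker, read 462.9 and 453.9 in cerebellum and 507.8, 569.2 and 589.2 in the tumours, with 0.27 ± 0.18 (limma adjusted p = 0.310). The median of the subunits, -0.90, lay below that of all 9 other mitochondrial lists, whose medians ran from -0.41 to 0.11. This difference between lists was not tested, and the lists were not matched for intensity. Subunit probe sets on 430A with a mean intensity of 100 or less had a median of -0.22.

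**Figure D5:**
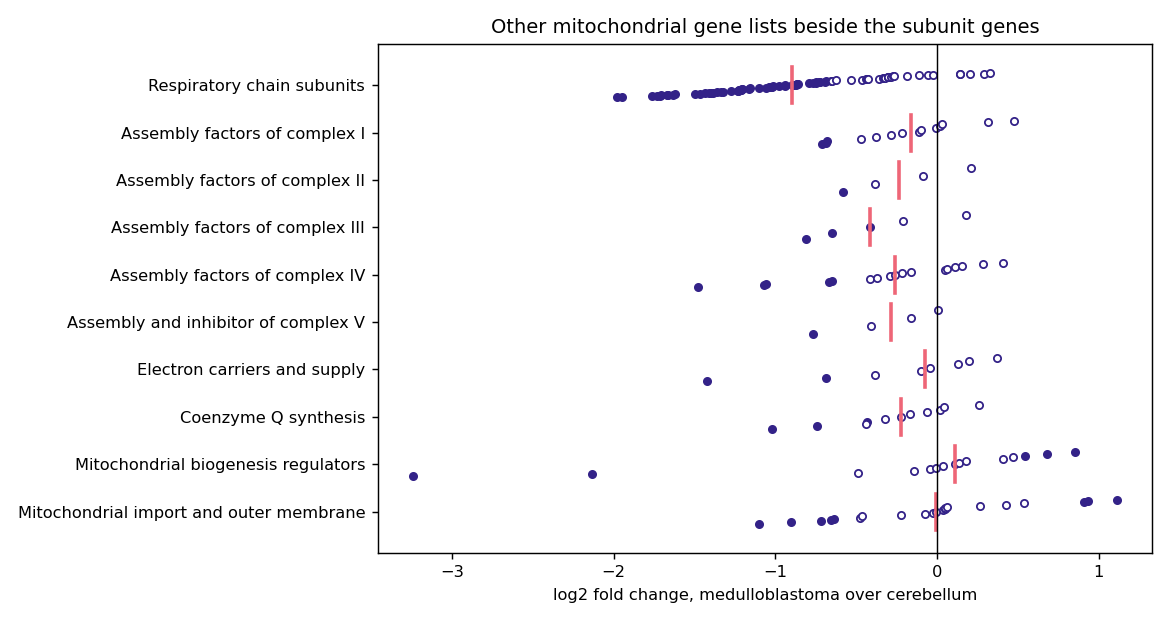
Log2 fold change of tumour over cerebellum (x axis) for each tested gene of the subunit set and of 9 other mitochondrial lists (y axis), with filled points for genes that passed the test and a red bar at the median of each list. The medians of the other lists lie between -0.41 and 0.11, and that of the subunits at -0.90. The lists were not matched for intensity.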

How the data were processed

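RNA of 3 medulloblastomas and 2 cerebellum samples was measured on each of 2 chips, 430A and 430B. Trizol extraction and Affymetrix cRNA labelling are described per the labels' protocols. The authors deposited 1 linear intensity per probe set and array. Which software, scaling and background treatment made them is not given in the sources used here. The number of arrays limits the precision.

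Intensities were transformed to log2(value + 16) with no further normalization, and probe sets in the lowest 25% by mean were left out. The chips were fitted separately in limma 3.58.1 under R 4.3.3 (lmFit, eBayes with an intensity trend, two-sided), with Benjamini-Hochberg adjustment over 16969 probe sets on 430A and 16883 on 430B. Each gene was represented by 1 tested probe set naming no other gene, preferring 430A, then probe sets without an _s_at or _x_at suffix, then the highest mean. Of 22626 and 22511 probe sets 20380 and 14661 name 1 gene, 691 and 245 several and 1555 and 7605 none, in the platform annotation. Genes were put into complexes by symbol. Isoform pairs were compared by exact permutation tests over arrays. Values by array are given for the 4 largest called changes and the smallest change of each complex and for isoforms, and up to 4 called genes for other lists; further genes were named after their values were seen, as were the roles of subunits and the motifs. The members and lists were chosen with earlier results of these data known.

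On simulated data the fit called 34% of 97 probe sets planted at an absolute log2 fold change of 1 on 430A and 80% of 75 planted at 2, with 1.06% of calls false. On 430B these were 49.5% of 91, 91% of 78 and 6.45%. Alternatives were other pseudocounts (1 and 64), normalizations, filters and choices of probe set, no trend, the replicate number as a block, a limit of 0.01 and each sample number left out on both chips. Plots used matplotlib 3.10.9 (Python 3.11.15).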

Additional observations from a re-analysis of the deposited data

How the results depend on the processing

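With 3 tumours and 2 cerebellum samples, and 3 residual degrees of freedom, counts moved more than directions. No called gene changed sign in any alternative that kept its probe set. With the brightest probe set 2 genes that were not called turned sign, Atp5c1 to -1.05 and Cox7a2l to -0.01. Quantile normalization left 14 lower genes in complex I, 1 in complex II and 7 in complex V. It made 2 subunit genes higher (1 in complex IV and 1 in complex V). The median was then -0.54 over the 81 subunit genes and 0.01 over all genes tested. By complex it was -0.54 in complex I, -0.47 in complex II, -0.72 in complex III, -0.63 in complex IV and -0.40 in complex V. The median of complex IV was -1.20 with a pseudocount of 1, -0.70 with 64, -0.74 with no filter, -1.22 with the lower 50% left out and -1.16 with genes of 430A only. A pseudocount of 64 gave -0.66 in complex II and -0.93 in complex III. The pairs Cox6b1 against Cox6b2 and Cox7a2 against Cox7a1 turned to 0.079 and 0.18 with a pseudocount of 1. When 1 sample number was left out, 38 to 58 genes were lower and none higher, with 15 to 26 in complex I and 1 to 3 in complex II, and 38 of the 55 calls held in all 5 such fits; 16 ended in at least 1, and Cox6b2 was not tested without a cerebellum array. Medians then ran from -1.01 to -0.81 over the subunit genes tested, -1.09 to -0.77 in complex I and -0.92 to -0.63 in complex II. They ran from -1.23 to -0.90 in complex III and -1.18 to -0.73 in complex IV. A fit without 1 cerebellum array assumes that the other varies like the tumours. With the replicate number as a block, 56 genes were lower and none higher; same-numbered samples share only a number (correlation of deviations -0.0287 and 0.170 on 430A, 0.114 and 0.0204 on 430B). Ndufa4 and Ndufa4l2 counted in complex IV, an alternative chosen after seeing the data, changed no count by over 1.5 times.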
